A study of Sus scrofa with 3 samples.

Results

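miR-101 is a microRNA (miRNA) family encoded by 2 hairpins in the pig genome, mir-101-1 and mir-101-2. It was read in small RNA libraries of liver from male pigs of the Jinhua breed at embryonic day 90 (E90), at postnatal day 30 (P30d, the weaning stage) and in postnatal year 7 (P7y, the adult stage). The labels name 3 pigs per stage, deposit 1 library per stage and do not state whether RNA was pooled, and no agent or allele is named. miR-101 was 1 of 547 hairpin families with a known miRNA name, and it took up 28 of the 3456 named lines of the 3 tables, with 11 lines at E90, 8 at P30d and 9 at P7y. Every line whose hairpin was named mir-101 was included, whatever the mammal it was named after, and reads were summed by arm and by hairpin copy. The family was chosen by the reads of its arms, which differed in opposite directions between these libraries, so the arm levels are descriptions. With 1 library per stage there is no replicate spread and no test between stages.

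A miRNA hairpin is cut out of a longer transcript by Drosha and trimmed to a short duplex by Dicer. One strand of the duplex, from the 5p or the 3p arm, is kept in an Argonaute protein, and the other is usually degraded. The bases after the first, called the seed, pair with target messenger RNAs. The retained strand of miR-101 is usually miR-101-3p, best known as a repressor of EZH2, the histone methyltransferase of the Polycomb repressive complex PRC2, and as a miRNA that is reduced in liver cancer.

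Both pig hairpins are printed 5′ to 3′ as the deposited tables give them, because they carry the same 3p arm and different 5p arms. Capitals mark the arms, the first run being the 5p arm as read and the second the known miR-101-3p.
mir-101-1: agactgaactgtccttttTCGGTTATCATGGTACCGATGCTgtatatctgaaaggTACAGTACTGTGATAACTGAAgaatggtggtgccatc
mir-101-2: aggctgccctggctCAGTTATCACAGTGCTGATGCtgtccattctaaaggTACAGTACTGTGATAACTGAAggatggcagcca
mir-101-1 lies at chr1:242988419-242988510 on the minus strand and mir-101-2 at chr6:135736114-135736196 on the plus strand (Sscrofa10.2). In the RefSeq table of another build, Sscrofa11.1, used for names only, the genes of these hairpins lie within the span of RCL1 and of JAK1. Whether they are exonic or intronic was not analysed here. The hairpin of mir-101-1 is 92 nt long, with a folding energy of -32 kcal/mol in the deposited table and 15 paired bases in the mature region. The hairpin of mir-101-2 is 83 nt long, with -47.1 kcal/mol and 21 paired bases there. The 3p arms are identical, and counted from the first base of miR-101-3p the first difference downstream is A23G (mir-101-1, then mir-101-2). Upstream of it 5 bases are shared. The 5p arms, counted from the T of the 5p read that starts TCGG or TCAG, differ at 5 of 22 bases (G3A, T11C, G12A, A15G and C17T, mir-101-1 first). A 5p read can therefore be told apart by copy, and most 3p reads cannot.

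The tables give 1 representative read per arm and library, and those of miR-101-3p are printed because their ends differed between the libraries. Capitals mark bases 2 to 8.
miR-101-3p at E90: tACAGTACtgtgataactgaag
miR-101-3p at P30d: gTACAGTActgtgataact
miR-101-3p at P7y: tACAGTACtgtgataactgaa
The read at P7y was the known miRNA of 21 nt. The read at E90 had the same start and 1 base more at its 3′ end, 22 nt in all. The read at P30d started 1 base earlier and ended 3 bases sooner, at 19 nt. Its bases 2 to 8 were therefore TACAGTA, against ACAGTAC in the other 2 libraries. These reads had 159837 copies at E90, 3221 at P30d and 265782 at P7y, which were 26.4%, 16.2% and 22.3% of the miR-101-3p reads of the pig hairpins. In each library most miR-101-3p reads thus had other ends or a mismatch, and those ends were not analysed here. The representative 5p reads were as follows.
miR-101-5p of mir-101-1 at E90 and P30d: tCGGTTATcatggtaccgatgct
miR-101-5p of mir-101-2 at E90: tCAGTTATcacagtgctgatgc
miR-101-5p of mir-101-2 at P30d and P7y: cAGTTATCacagtgctgatgc
The miR-101-5p read of mir-101-2 started 1 base earlier at E90 than in the later libraries, but this rested on 2 copies.

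**Figure D1:**
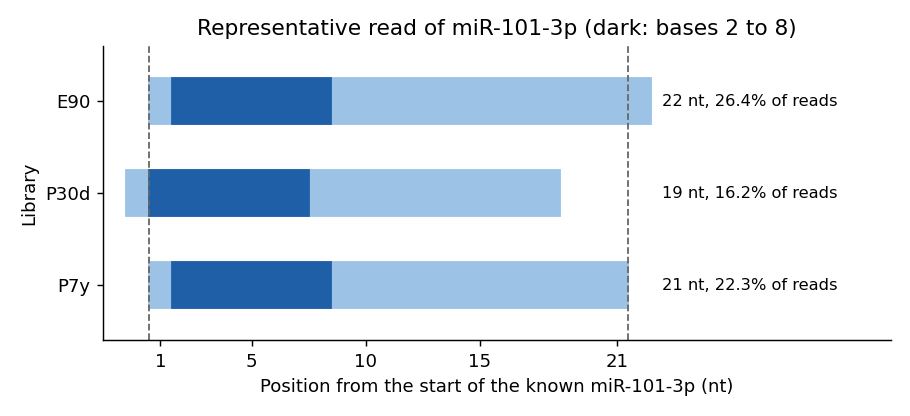
Extent of the representative miR-101-3p read of each library, in nt from the start of the known miRNA; dashed lines mark the ends of the known miRNA, dark blocks bases 2 to 8, and the text the length and the share of miR-101-3p reads. The P30d read starts 1 base before the other libraries' reads and is 19 nt long, against 22 nt at E90 and 21 nt at P7y.

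The comparison set was 81 other miRNAs with at least 1000 reads in each library, whose main line lay on a pig hairpin of miRBase that was placed on the genome and was named after the same known mature miRNA in all 3 libraries. Of these, 0 had a representative read at P30d whose start differed from both other libraries. At P30d 6 of the 81 had a read shorter than in both other libraries and 6 a longer one. Only miR-30d-5p, named after its values were seen, was shorter there by 2 nt or more in both comparisons (24, 20 and 24 nt at E90, P30d and P7y). The median length over the 81 was 22 nt in every library.

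Named miRNAs took up 9243601 reads of E90, 3622993 of P30d and 9920207 of P7y, so P30d was the shallowest library, and a count of 0 allowed up to 0.325, 0.828 and 0.302 counts per 1000000 named miRNA reads (CPM). Intervals are exact and 95%. They cover counting error only, and reads copied by PCR are not independent molecules. A miRNA is called higher or lower where 2 libraries differed by 2-fold or more with an interval off 0. The liver miRNA miR-122-5p, the hepatocyte marker, stood at 128017 CPM at E90, at 213802 in P30d and at 37870 in P7y. Marker miRNAs of other cells were present in every library, as all 4 of 4 erythroid markers (summed 7234, 3033 and 1819 CPM in the order E90, P30d, P7y), all 5 of 5 leukocyte markers (962, 3446 and 944), both endothelial markers (13297, 11884 and 13568) and all 4 of 4 mesenchymal markers (55757, 59484 and 110028). These sums hold members that differed in opposite directions. From E90 to P30d miR-142-5p was 7.89-fold higher and miR-223-3p 5.90-fold lower among leukocyte markers, and miR-199a-5p was 12.01-fold higher and miR-143-3p 2.88-fold lower among mesenchymal markers. The part of these cells in the levels of miR-101 was not tested. In whole liver, fewer cells of a type and less of a miRNA per cell cannot be told apart.

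miR-101-3p had 604561 reads in the E90 library, 19915 in the P30d library and 1190359 in the P7y library. These were 65403 CPM (interval 65238 to 65568), 5497 CPM (5421 to 5574) and 119993 CPM (119778 to 120209). miR-101-3p was thus lowest at P30d and highest at P7y, and the counting intervals did not overlap. It ranked 5th among the miRNAs of E90, 30th at P30d and 2nd at P7y, with 6.54%, 0.550% and 12% of all named miRNA reads. miR-101-5p, the arm that is usually degraded, had 10 reads at E90, 97 at P30d, then 10 at P7y. These were 1.08 CPM (0.519 to 1.99), 26.8 CPM (21.7 to 32.7) and 1.01 CPM (0.483 to 1.85). miR-101-5p was thus highest where miR-101-3p was lowest, and its intervals at E90 and P7y overlapped. Of the 2 arms, 1 passed the filter of a mean of 10 CPM, and miR-101-5p did not.

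**Figure D2:**
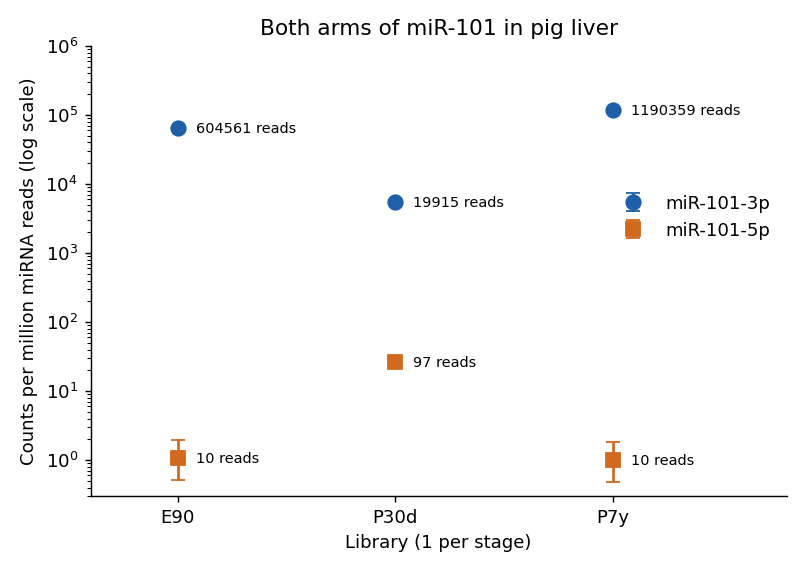
Level of miR-101-3p (circles) and miR-101-5p (squares) in each library, in CPM on a log axis, with exact 95% Poisson intervals and the reads behind each point. The 3p arm dips at P30d, from 65403 to 5497 CPM, while the 5p arm peaks there at 26.8 CPM.

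Some of these 5p reads did not come from the 5p arm. On the pig hairpins alone miR-101-5p had 7 reads at E90, 97 at P30d, then 9 at P7y. The others were placed on the 5p side of hairpins of other mammals. Those named after mouse mir-101c began 1 base before the pig miR-101-3p and matched its strand with 2 mismatches, so they were 3p-like reads. The lines of other mammals held 108, 14 and 273 of the miR-101-3p reads at E90, P30d and P7y, and 106, 14 and 272 of these carried a mismatch.

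From E90 to P30d, miR-101-3p was 11.9-fold lower, a log2 ratio of -3.57 (-3.59 to -3.55). Over the same pair miR-101-5p was 24.7-fold higher, a log2 ratio of 4.63 (3.69 to 5.73). Of the 322 miRNAs that passed this filter, 35.4% were called lower and 33.5% higher, so a call in either direction was common. The median log2 ratio of the 322 was -0.11, and 33 of them had a lower ratio than miR-101-3p.

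From P30d to P7y, miR-101-3p was 21.8-fold higher, a log2 ratio of 4.45 (4.43 to 4.47), where 13.4% of the 322 miRNAs were called higher. miR-101-5p was 26.6-fold lower, a log2 ratio of -4.73 (-5.84 to -3.79), where 55.9% were called lower. Only miR-203a-3p and miR-29d-3p, named after their values were seen, had a higher ratio than miR-101-3p, and both had 0 reads at P30d. Names differ between the tables, and these zeros may be a matter of naming. The related name miR-203-3p had 258, 851 and 391 reads in E90, P30d and P7y, where miR-203a-3p had 2058, 0 and 3326, and miR-29c-3p had 51, 88 and 0, where miR-29d-3p had 0, 0 and 513. The median log2 ratio of the 322 was -1.38, and TMM and DESeq2 scaling raised it by 0.99 and 1.17. Relative to the median, miR-101-3p stood at 5.82 and miR-101-5p at -3.35, so the directions did not depend on that shift.

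Between E90 and P7y, miR-101-3p had a log2 ratio of 0.88 (0.87 to 0.88), or 1.83-fold, and was not called, where 11.8% of miRNAs were called higher and 50.9% lower. The median of the 322 was -1.09, and relative to it miR-101-3p stood at 1.96. It was called higher under TMM scaling (1.94) and DESeq2 scaling (1.99), so this call rested on the scaling. miR-101-5p had a log2 ratio of -0.10 (-1.52 to 1.32), and with 10 reads in each library a difference below that width was not detectable.

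The balance of the arms does not depend on scaling, since both arms come from the same library. miR-101-3p had 60456 reads for each miR-101-5p read at E90, 205 in P30d and 119036 in P7y. miR-101-5p made up 0.00165% of the reads of both arms at E90 (0.000793 to 0.00304), 0.485% in P30d (0.393 to 0.591) and 0.000840% in P7y (0.000403 to 0.00154). The 3p arm was thus by far the more abundant arm in each library, and P30d stood apart from the other two. On the log2 scale the odds of 5p over 3p changed by 8.14 (7.26 to 9.31) from E90 to P30d and by -9.12 (-10.28 to -8.24) from P30d to P7y. Between E90 and P7y the change was -0.98 (-2.40 to 0.44), with an interval that holds 0. On the pig hairpins alone the changes were 8.63, -9.26 and -0.64 in the same order.

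The same balance was computed for 181 hairpins with both arms read and at least 50 reads in each library. Names merged for the levels were not merged here, so some hairpins lack part of their reads. miR-194-5p had 219, 168 and 192 reads here at E90, P30d and P7y, against 258447, 52981 and 151593 in the levels. The counts and shares of hairpins below rest on these split names. The balance was called changed, by 2-fold or more, in 60.2% of the 181 hairpins from E90 to P30d. From P30d to P7y it was 64.1% and from E90 to P7y 48.1%, so a changed balance was common. From E90 to P30d 0 of the others had a change larger in size than that of miR-101, and from P30d to P7y only miR-542 had a larger fitted value. miR-542-5p had 0 reads at P7y, so that value rests on the 0.5 added to each arm. Its interval reaches -8.96, smaller in size than the -9.12 of miR-101, and which of them changed more is not established. A less abundant arm that was highest at P30d was not particular to miR-101. Examples, named after their values were seen, are miR-21-3p (log2 ratios 5.23 from E90 to P30d and -4.28 from P30d to P7y), miR-122-3p (4.21 and -5.84) and miR-186-3p (4.90 and -4.41). Other such arms were lowest there, as miR-127-5p (-4.09 and 2.13), which rests on 87, 2 and 24 reads at E90, P30d and P7y. The hairpins of each kind were not counted, so these examples do not show how frequent each kind was. Arms called in opposite directions were less frequent, at 8.29% of hairpins in each of these steps and 5.52% from E90 to P7y. Unlike the balance, these calls use CPM and depend on the scaling, and their counts were run with no other scaling. Both arms turned in both steps in 2 of 181 hairpins (1.1%), miR-101 and miR-542, and in both the 5p arm was high and the 3p arm low at P30d. miR-542-3p had 10738 CPM at E90, 115 in P30d and 375 in P7y. miR-542-5p had 21.7 CPM at E90, 57.4 at P30d and 0 reads at P7y. At P7y miR-542-3p was called lower than at E90 (log2 ratio -4.84), whereas miR-101-3p stood 1.83-fold above its level of E90.

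**Figure D3:**
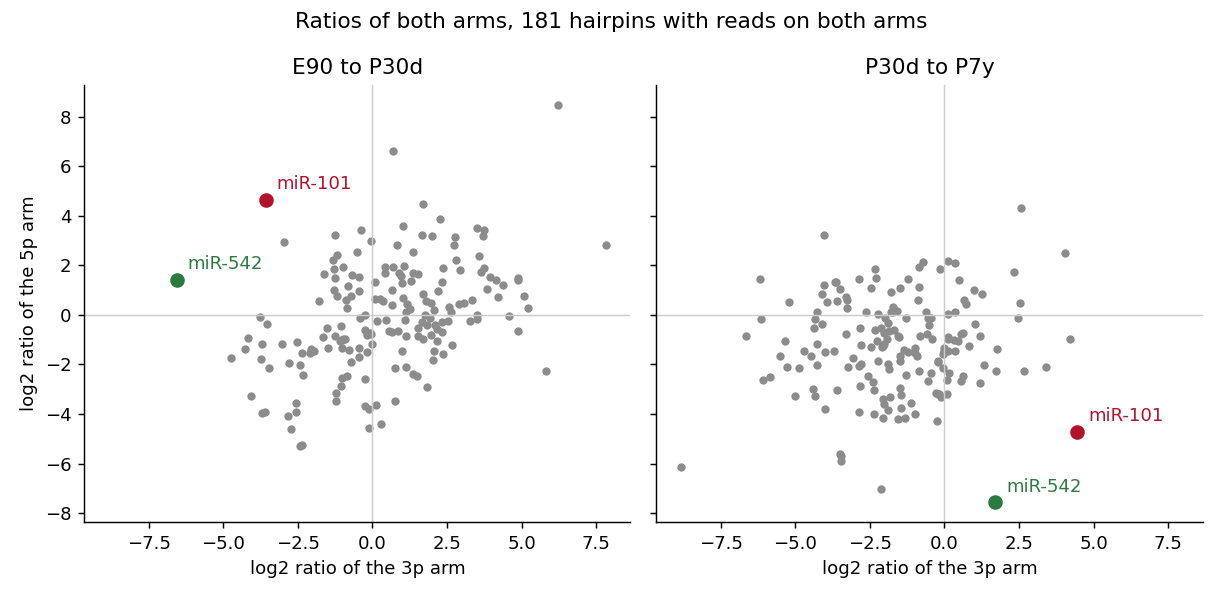
Log2 ratio of the 5p arm against that of the 3p arm for 181 hairpins (points), from E90 to P30d on the left and from P30d to P7y on the right, later over earlier library. miR-101 lies at -3.57 (3p) and 4.63 (5p) on the left and at 4.45 and -4.73 on the right, and miR-542 is the other hairpin marked.

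The tables divide a read that fits several hairpins equally among them, which put 51.4% of miR-101-3p reads on mir-101-1 at E90, 50.9% in P30d and 51.0% in P7y. That near-even split reflects the division. The deposited reads per hairpin are undivided, and comparing them with the divided ones gave the reads that fit 1 copy only. The reads that fit both copies came out at 587290, 19541 and 1164645 for E90, P30d and P7y in turn. miR-101-3p reads that fit mir-101-1 only numbered 16978, 355 and 25034, and those that fit mir-101-2 only 185, 5 and 407. Of these copy-specific 3p reads, mir-101-1 held 98.9% (98.8 to 99.1) at E90, 98.6% (96.8 to 99.5) in P30d and 98.4% (98.2 to 98.6) at P7y. The predominance of mir-101-1 among them was thus alike in all 3 libraries, although the level of miR-101-3p differed up to 21.8-fold. The copy-specific reads of mir-101-1 were 2.81%, 1.78% and 2.10% of its family's 3p reads, so they say little of the others. A base 23 that was transcribed from mir-101-1 and an A added to the end of a shorter read cannot be told apart here.

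The 5p arm, which differs between the copies, gave another picture at P30d. miR-101-5p had 5 reads of mir-101-1 and 2 of mir-101-2 at E90, 18 and 79 at P30d, and 0 and 9 at P7y. mir-101-1 thus held 71.4% (29.0 to 96.3) of 7 reads at E90, 18.6% (11.4 to 27.7) of 97 at P30d, and 0% (up to 33.6) of 9 at P7y. At P30d most miR-101-5p reads were of mir-101-2, while most copy-specific miR-101-3p reads were of mir-101-1. At P7y the interval of the 5p share also lay below that of the 3p reads, on 9 reads. At E90 the 7 reads gave an interval that was too wide to place the share, and it also lay below that of the 3p reads.

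**Figure D4:**
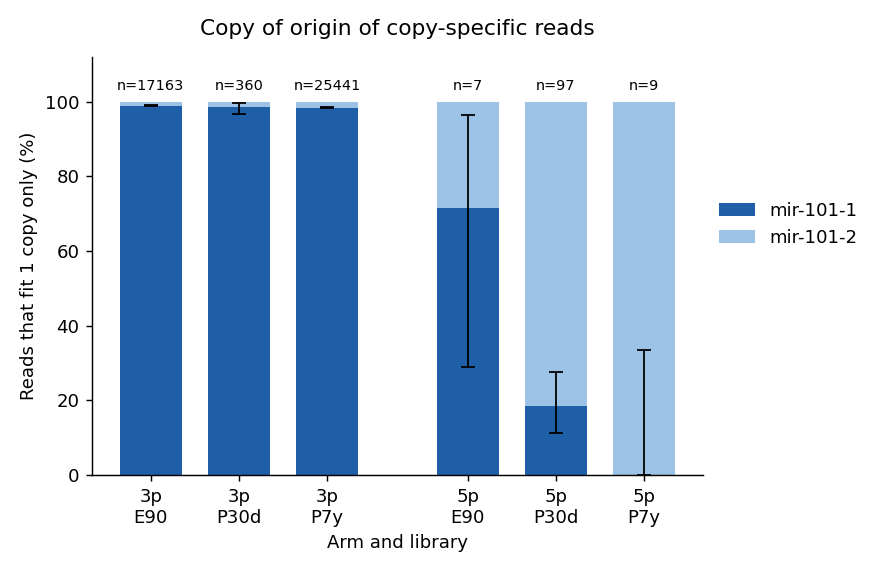
Share of copy-specific reads from mir-101-1 (dark) and mir-101-2 (light), in percent, for each arm and library, with exact 95% intervals of the mir-101-1 share and the number of reads above each bar. mir-101-1 holds 98.4% to 98.9% of the 3p reads, and 18.6% of the 97 reads of the 5p arm at P30d.

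miR-101-3p reads with a mismatch to the hairpin were 108885 of 604561 at E90, 6096 of 19915 at P30d and 309270 of 1190359 at P7y. These shares were 18.01% (17.91 to 18.11), 30.6% (30.0 to 31.3) and 26.0% (25.9 to 26.1), highest at P30d. All other named miRNAs together had 18.7%, 13.9% and 21.1%, lowest at P30d. That total is weighted by abundant miRNAs such as miR-122-5p (34.5%, 10.04% and 25.1%). Among 99 other miRNAs with at least 1000 reads in each library the median share was 9.77%, 11.5% and 14.0%. Of these 99, 32 lay above miR-101-3p at E90, 21 at P30d and 27 at P7y, so its share was not extreme in any library. From E90 to P30d the share of miR-101-3p was higher by 12.6 percentage points, against a median of 1.46 in the 99, of which 61 were higher at P30d and 11 had a larger difference. The examples among these 11 were chosen after their values were seen. They included miR-152-3p (9.05% to 42.1%) and miR-148b-3p (19.6% to 38.6%), which were also lower at P30d (log2 ratios -3.71 and -3.77). They also included miR-93-5p (9.02% to 30.9%), whose level was close in both libraries (-0.35), and miR-23b-3p (15.1% to 27.7%) and miR-1285-3p (51.2% to 74.2%), which were higher at P30d (1.94 and 1.15). Across the 100 miRNAs, the change in share and the log2 ratio of the level had a Spearman rho of -0.46 from E90 to P30d, -0.22 from P30d to P7y and -0.05 from E90 to P7y. Each pair of values comes from the same reads of the same libraries, and rho is given as a description. miR-101-5p had a mismatch in 3 of 10 reads at E90, 4 of 97 at P30d and 2 of 10 at P7y, too few to order. Those of E90 and P7y include 3p-like reads. On the pig hairpins alone the shares were 14.3% of 7 reads, 4.12% of 97 and 11.1% of 9.

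**Figure D5:**
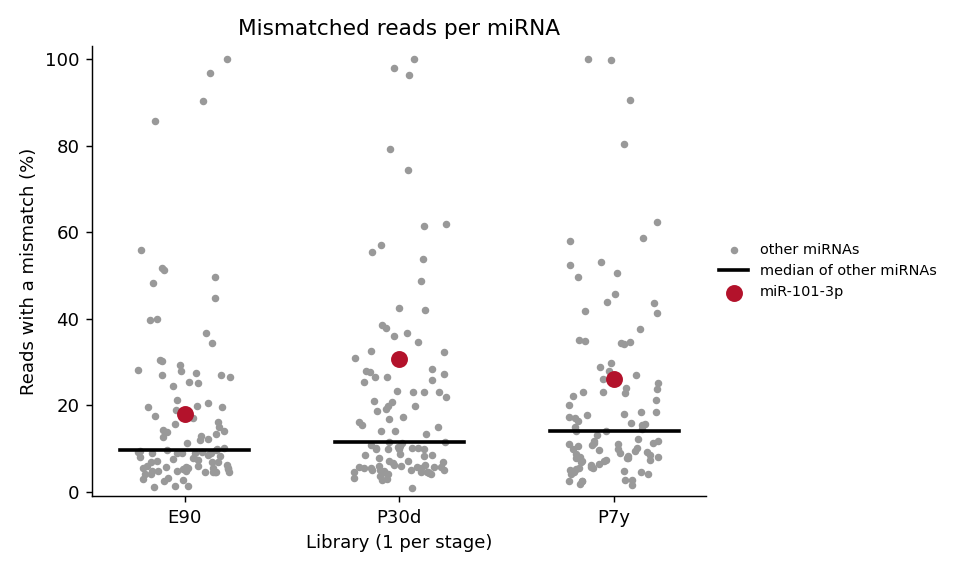
Percent of reads with a mismatch for miR-101-3p (red) and 99 other miRNAs with at least 1000 reads in each library (grey, spread sideways at random), with the median of the others as a black line. miR-101-3p stands at 18.01% (E90), 30.6% (P30d) and 26.0% (P7y), above the median of the others in each library.

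miR-144-3p has the same bases 2 to 7 as miR-101-3p, so their targets can overlap, and it is a miRNA of red cell precursors. The known sequences are printed to show the 6 shared bases of the seed and the first difference, C8T (miR-101-3p, then miR-144-3p), with capitals at bases 2 to 8.
miR-101-3p known: tACAGTACtgtgataactgaa
miR-144-3p known: tACAGTATagatgatgtac
miR-144-3p stood at 978 CPM at E90, 1195 in P30d and 123 in P7y, far below miR-101-3p in the libraries of E90 and P7y. From E90 to P30d its log2 ratio was 0.29 (0.24 to 0.34), not called, and from P30d to P7y it was lower (-3.27). The summed level of both miRNAs was 66381 CPM at E90, 6691 in P30d and 120117 in P7y. Most of each sum was miR-101-3p itself, so the sum follows it and is no separate observation. Of these 2 miRNAs, 1 was called lower from E90 to P30d (35.4% of all 322 were). From P30d to P7y 1 was higher and 1 lower (13.4% and 55.9% of all).

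Among 12 miRNAs that have been reported to repress EZH2, all had a read and 8 passed the filter. From E90 to P30d 6 of the 8 were higher and 1, miR-101-3p, was lower, with a median log2 ratio of 2.05. Over all 322 miRNAs 33.5% were higher and 35.4% lower, with a median of -0.11. miR-26a-5p, an abundant liver miRNA, had 19843 CPM at E90, 102238 in P30d and 25361 in P7y, highest where miR-101-3p was lowest. Its paralog miR-26b-5p had 3280, 9202 and 1833 CPM. miR-214-3p, a miRNA of stellate cells and other mesenchymal cells, had 95.9, 498 and 178 CPM. The let-7 family, whose levels build up in maturing tissue, gave let-7a-5p at 3530, 16430 and 9697 CPM and let-7b-5p at 319, 2260 and 1224 CPM. Of the let-7b-5p reads, 99.93%, 99.91% and 99.94% carried a mismatch, so its level and calls rest almost wholly on mismatched reads. let-7c-5p, at 1629, 2122 and 861 CPM, was not called from E90 to P30d, and miR-98-5p, at 161, 597 and 141 CPM, was higher. From P30d to P7y 1 of the 8 was higher, miR-101-3p, and 5 were lower, with a median of -1.39. Over all 322, 13.4% were higher and 55.9% lower, with a median of -1.38, so the count of lower members was close to the background. From E90 to P7y 2 were higher, let-7a-5p and let-7b-5p, and 0 lower, with a median of 0.61, where 11.8% of all were higher and 50.9% lower, with a median of -1.09. By reads without a mismatch, 1 of the 8 was higher, where 32 of all 322 were. The later counts moved with the scaling: TMM gave 3 lower from P30d to P7y and 5 higher from E90 to P7y, and DESeq2 gave 1 and 5. Over all 322, TMM called 117 lower and 90 higher in these pairs, and DESeq2 101 and 93. Summed over the list, the level was 94306 CPM at E90, 138857 in P30d and 159292 in P7y, so the summed level did not dip at P30d with miR-101-3p. Most of the sum was miR-101-3p itself at E90 and P7y and miR-26a-5p at P30d, so it does not describe the list as a whole. miR-138-5p, at 6.60, 5.80 and 1.61 CPM, and the neural miR-124-3p, at 0.108, 0.828 and 1.71 CPM, were below the filter. So were miR-137-3p, at 22.1 and 4.97 CPM and 0 reads at P7y, and miR-217-5p, a pancreas miRNA, at 16.4 and 0.552 CPM and 0 reads. EZH2 itself was not measured in these libraries.

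Of 12 miRNAs known from hepatocytes or abundant in liver, all passed the filter, and miR-101-3p was among the 2 that were lower from E90 to P30d. The other was miR-455-5p, at 293 CPM at E90, 23.5 in P30d and 65.2 in P7y. The 3 that were higher were miR-802-5p (2.27, 685 and 63.5 CPM in the same order), miR-885-5p (9.41, 209 and 13.8) and miR-22-3p (2266, 15238 and 2924). The median log2 ratio of the 12 was 0.00, against -0.11 over all 322, of which 33.5% were higher and 35.4% lower. From P30d to P7y 3 of the 12 were higher and 4 lower, with a median of 0.10, against 13.4% higher, 55.9% lower and a median of -1.38 over all. miR-148a-3p, at 75920, 41822 and 95666 CPM, was higher with miR-101-3p and miR-455-5p, while miR-122-5p was lower with the 3 that had been higher at P30d. From E90 to P7y 1 was higher, miR-802-5p, and 2 were lower, miR-122-5p and miR-455-5p, with a median of 0.35, against 11.8% higher, 50.9% lower and a median of -1.09 over all. TMM and DESeq2 scaling each gave 8 of the 12 higher in the last 2 pairs. Over all 322 miRNAs, TMM called 86 and 90 higher in these pairs, and DESeq2 97 and 93. The other members of the 12 were called in no pair by CPM, as miR-192-5p (109466, 109310 and 154836 CPM), miR-194-5p (27960, 14624 and 15281), miR-30a-5p (39277, 29878 and 33261), miR-21-5p (14245, 17052 and 18625) and miR-215-5p (323, 325 and 331). Of the miR-215-5p reads, 85.6%, 79.2% and 80.4% carried a mismatch. The summed level of the 12 was 463182 CPM at E90, 448465 in P30d and 478929 in P7y, within a narrow range. That sum includes miR-101-3p and holds large members that differed in opposite directions. Of these, miR-122-5p was highest at P30d and lowest at P7y, and miR-101-3p was lowest at P30d and highest at P7y.

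Likeness to miR-101-3p was measured as the Euclidean distance of centred log2(CPM + 1) over the 3 libraries, among the 177 other miRNAs whose mean was at least 100 CPM. The closest were miR-1260b-5p (distance 0.216), miR-2478-3p (0.262), miR-3968-5p (0.914), miR-375-3p (1.40) and miR-148b-3p (1.53). miR-1260b-5p had 141, 13.2 and 257 CPM at E90, P30d and P7y, and miR-2478-3p had 1202, 92.2 and 1715. miR-3968-5p had 142, 26.5 and 533 CPM, and miR-375-3p, known from pancreatic islets, had 1289, 104 and 706. miR-148b-3p, of the miR-148 and miR-152 family, had 8669, 635 and 4076 CPM. All 5 were lowest at P30d, but the last 2 were higher at E90 than at P7y, unlike miR-101-3p.

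The closest to miR-101-5p, among the 322 miRNAs past the filter, were miR-199a-5p (distance 0.246), miR-192-3p (0.252), miR-374a-5p (0.363), let-7d-3p (0.432) and miR-139-5p (0.444). The 1 added before the logarithm is about the level of miR-101-5p at E90 and P7y, so it understates the differences of miR-101-5p. These distances and their order rest on it, and no other value was run. miR-199a-5p, a mesenchymal miRNA, had 3349, 40212 and 2539 CPM. miR-192-3p, the less abundant arm of the liver miRNA miR-192, had 23.9, 274 and 18.04 CPM. miR-374a-5p had 606, 6539 and 410 CPM, let-7d-3p had 3.79, 78.4 and 6.05, and miR-139-5p had 41.4, 448 and 49.1. The 5 were highest at P30d, and miR-192-3p and let-7d-3p are, like miR-101-5p, the arm usually not retained.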

How the data were processed

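Per the labels' protocols, RNA with an integrity number above 6 was size-selected at 14 to 40 nt, given adaptors, amplified (RT-PCR) and read on a Genome Analyzer II, giving 1 library for each of 3 stages. The authors deposited arm read numbers that are expected counts, or estimated counts, since per the file headers a read that fits several hairpins is divided. The deposited reads per hairpin and copies of the representative read are counts. Per the submitters' processing notes the build is Sscrofa10.2. The aligner, the trimming, the mismatches allowed and the miRBase release: not given in the sources used here.

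Expected counts were summed per mature miRNA without species or copy number, rounded, and given per 1000000 named reads. Locus letters were dropped for miR-101 and kept in the names of other miRNAs. Of 1003 names, 17 were merged where 1 representative read (18 nt at least) made up over 50% of both, and 2 were joined by hand, both after the tables were seen. The arm balance of all hairpins used the names before merging. Levels were compared at a mean of 10 CPM or more as log2 ratios with exact conditional binomial 95% intervals. A call needed a log2 ratio of 1 or more in size and an interval off 0. A count of 0 was set to 3 reads. Shares have Clopper-Pearson intervals, and arm balance added 0.5 to each arm. Named were both arms, all members of the lists, the 5 miRNAs most like each arm and hairpins opposed in both steps. The members and lists were chosen with earlier results of these data known. No p-values are given. The comparison was tested on simulated counts that hold counting error only, so spread between libraries or pigs was not covered. Alternatives used TMM (edgeR 4.0.16) and size factors (DESeq2 1.42.0), other totals, filters, pseudocounts and read sets. Tools were R 4.3.3, Python 3.11.15, SciPy 1.17.1, NumPy 2.4.6, pandas 2.3.3 and matplotlib 3.10.9.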

Additional observations from a re-analysis of the deposited data

How the results depend on the processing

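With 1 library per stage no left-out replicate could be run, and no spread between pigs is known. No paired analysis was possible because each stage has 1 library. Depth limits miR-101-5p, which rests on 10, 97 and 10 reads. Over all alternatives run, miR-101-3p kept its direction and call from E90 to P30d (-4.28 to -3.49) and from P30d to P7y (4.45 to 5.62), and miR-101-5p did so too (4.22 to 5.14 and -4.88 to -3.56). The arm balance ranged from 8.08 to 8.80 and from -9.45 to -8.80. The ends -4.28, 4.22 and -8.80 of these ranges come from representative reads alone. Those reads have different ends in the libraries, so unlike reads are compared there. The log2 ratio of miR-101-3p from E90 to P7y passed the threshold with TMM (1.94), DESeq2 (1.99) and a total without the 5 most abundant miRNAs (1.20), where by construction the scaling alone differs.

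Some alternatives were chosen after the tables were seen, namely copy-specific reads and pig hairpins only. The share on mir-101-1 became 98.9%, 98.6% and 98.4% by copy-specific reads, and 51.2% at P7y by reads without a mismatch. Those copy-specific reads of mir-101-1 were only 2.81%, 1.78% and 2.10% of the miR-101-3p reads, so they do not estimate the share of the others. The mismatch share on mir-101-1 and mir-101-2 was 17.9% and 18.2% at E90, and 25.8% and 26.2% at P7y. Hairpins opposed in both steps became 4 by reads without a mismatch, with miR-194 and miR-99a added; the cause was not tested.

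From P30d to P7y the miRNAs called higher and lower were 43 and 180, with TMM 86 and 117, with DESeq2 97 and 101. From E90 to P7y they were 38 and 164, with TMM 90 and 107, with DESeq2 93 and 102. The higher share of called miRNAs thus moved from 19.3% to 42.4% and from 18.8% to 45.7% with TMM. Without a filter, with more miRNAs tested, the counts were 194 and 200 from E90 to P30d, 67 and 339 from P30d to P7y, and 89 and 342 from E90 to P7y. At 100 CPM, with fewer tested, they were 59 and 58, then 93 lower, then 21 and 82. Among EZH2 repressors, lower from P30d to P7y were 3 with TMM and 1 with DESeq2. Higher from E90 to P7y were 5 with either, 4 without the 5 most abundant and 1 by reads without a mismatch. Over all 322 miRNAs, the last 2 settings called 53 and 32 higher. Without a filter 3 EZH2 repressors were lower from E90 to P30d and 3 from E90 to P7y, where 200 and 342 of all 971 were. Hepatocyte miRNAs higher from P30d to P7y were 8 with either scaling. From E90 to P7y 8 were higher and 1 lower with either, and 2 higher without the 5 most abundant. Of the miRNAs that share bases 2 to 7, 1 was higher from E90 to P7y with each of these 3 totals.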

Other observations

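The other arm of miR-144, whose 3p arm shares bases 2 to 7 with miR-101-3p, did not follow it. miR-144-5p had 1168 CPM at E90, 54.7 at P30d, then 66.9 at P7y, against 978, 1195 and 123 CPM for miR-144-3p. The erythroid miR-451-5p had 3941, 1339 and 1223 CPM and miR-486-5p had 1147, 445 and 406, so these were highest at E90 with miR-144-5p, whereas miR-144-3p was highest at P30d. Unequal arms were also seen in leukocyte miR-142, with miR-142-3p at 195, 190 and 105 CPM and miR-142-5p at 374, 2956 and 609. In endothelial miR-126, miR-126-3p had 11832, 7426 and 10951 CPM and miR-126-5p had 1465, 4458 and 2616, the 3p arm lowest and the 5p arm highest at P30d. The cause was not tested.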
